A study of Mus musculus with 16 samples.

Results

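The genes described here encode the proteasome, and were taken as every protein-coding gene of the deposited kidney table whose symbol starts with Psma, Psmb, Psmc, Psmd or Psme. The rule gave 46 of 30277 genes. It took in 31 constitutive subunits, 5 genes of the immunoproteasome, 3 assembly chaperones, 2 further activators and 5 other genes. The last are the testis form Psma8, the thymus form Psmb11, the intronless copy Psme2b, and Psmc3ip and Psme3ip1, which encode no subunit. The values are RNA levels of whole kidneys from 16 C57Bl/6J mice, each library from its own animal, with polyadenylated RNA read by sequencing. The mice carried or lacked a recessive mutation of Kl (Klotho), bred onto this strain, and there were 4 animals in each group. Male controls 1 and 2 were +/Kl and male controls 3 and 4 were +/+. All female controls were +/Kl. The male KlKl and female KlKl groups were Kl/Kl and had renal failure. Ages ran from 46 to 59 days, and the kidneys had been perfused and flash frozen. The mutation is present throughout the body, so the groups differ in more than their kidneys.

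The proteasome is the barrel-shaped protease that degrades proteins tagged with ubiquitin. Its 20S core has rings of alpha subunits, which gate the entrance, and rings of beta subunits, of which Psmb5, Psmb6 and Psmb7 encode the catalytic ones. The 19S particle caps the core, with a ring of ATPases encoded by Psmc1 to Psmc6 that unfolds substrates and non-ATPase Psmd subunits that bind and trim ubiquitin chains. In immune cells, and in other cells after interferon, Psmb8, Psmb9 and Psmb10 take the places of Psmb5, Psmb6 and Psmb7 and form the immunoproteasome, which favours peptides that fit MHC class I. Psme1 and Psme2 encode the interferon-inducible PA28 alpha-beta activator, Psme3 the nuclear PA28 gamma and Psme4 the activator PA200.

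The libraries held 8209617 to 20109681 reads recovered from the deposited TPM (the deposited values are reads divided by gene span, so whole reads could be worked back), and every male library held more than any female KlKl library. Female control 3 was the shallowest library and came from a 57-day-old mouse, and male KlKl 3 was the shallowest male library. Both stood apart from their groups, and the counts of members called are given with and without them. Kl, the mutated gene, read 10.2, 7.82, 11.7 and 11 in male controls, 1.49, 0.881, 0.258 and 1.14 in male KlKl, 3.56, 5.73, 2.24 and 2.04 in female controls and 0.198, 0.0763, 0.0728 and 0.222 in female KlKl kidneys (TPM, replicates 1 to 4 of each group in order, as throughout), and so followed the genotype labels in every library. Kidney tubule markers summed to 7989 to 10882 RPM (reads scaled to the library total) in every library. The library names carry the same index numbers in both sexes. Whether each sex was prepared or sequenced in its own run is not stated in the sources used here, so sex and such a run cannot be told apart. Differences between male and female libraries also moved with transcript length. Among all protein-coding genes, the median male minus female log2 difference in reads of controls ran from -0.51 for transcripts of up to 1000 bases to 0.10 for those over 5000 bases. In KlKl kidneys it ran from -0.44 to 0.15. Values with each library's trend in length and GC content removed are therefore given beside the sex differences on reads of the members that passed. In whole kidneys, fewer cells of a type and less RNA per cell cannot be told apart.

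Levels were first compared between genes as RPKM (RPM per kilobase) on the longest protein-coding transcript, since the deposited TPM divides by the whole gene span with introns. The most abundant members were all core subunits. Psma4 averaged 169 over the 16 libraries (range 111 to 243), Psmb6 162 (120 to 227) and Psmb4 147 (109 to 195), so the first 3 in order overlapped. Psma7 at 123, Psmb5 at 120 and Psmb7 at 105 followed. Of the 19S subunits Psmc3 stood highest at 80.8 and Psmd11 lowest at 22.7. Psme1 lay among the constitutive genes at 69.4 (rank 11 of 46), while Psme2 averaged 22.3, Psmb10 15, Psmb8 8.66 and Psmb9 4.87 (ranks 32, 38, 41 and 43). The immunoproteasome genes were also among the most variable members, with coefficients of variation over the 16 libraries of 25.1% to 38.6%. Psmd7, a scaffold of the ubiquitin-trimming enzyme, varied least (6.11%). Psma8 and Psmb11 had at most 9 and 5 recovered reads in any library. Libraries with 0 reads of these allow up to 3 reads, for counting error only.

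The study asks what renal failure does in the kidney, and of the proteasome no member passed the test. On log2(TPM + 1), 0 of 40 tested members were called by limma in males, 0 in females and 0 for the mean of both sexes. Among all 8059 genes tested the called share was 0.0993%, 0.0124% and 0.0372%. On recovered reads, limma voom called 0 of 44 members in each of these comparisons, beside 0.04%, 0.0114% and 0.0172% of 17489 genes. At an unadjusted p under 0.05, limma on TPM gave 1 member in males (Psme1), 0 in females and 1 for the mean (Psmd5), and voom gave 2 (Psme1 and Psmd9), 0 and 1 (Psmd9). The difference of the effect between the sexes called 0 members in both fits, beside 0% of all genes in each, with 0 members at an unadjusted p under 0.05. Without female control 3 and male KlKl 3, 0 members were called in any of these comparisons by either fit. The shares of all genes were then 0.305% in males, 0.0255% in females, 0.153% for the mean and 0.0127% for the difference of the effect on TPM, and 0.0923%, 0.0173%, 0.0519% and 0.0173% on reads.

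Constitutive subunits differed little between KlKl and control kidneys. On TPM their median log2 difference was 0.11 in males, 0.08 in females and 0.10 for the mean, each below the median of all genes tested (0.18, 0.10 and 0.14). On reads the medians were -0.03, 0.03 and 0.01, beside 0.12, 0.11 and 0.12 for all genes. Their sign therefore depended on the scale, while their place below the all-gene median did not. The 95% intervals of the mean effect on reads reached at most from -0.36 (Psmd14) to 0.35 (Psma5) over the 31 constitutive genes, that is 0.780-fold to 1.27-fold. The catalytic subunits lay within this range. Psmb5, the chymotrypsin-like subunit, read 21.7, 20.4, 19.9 and 23.1 in male controls, 38, 23.5, 14.1 and 21.9 in male KlKl, 21.9, 23.2, 17.3 and 20.1 in female controls and 27, 24.9, 23.6 and 18.3 in female KlKl kidneys TPM, with the spread of male KlKl libraries, 14.1 to 38.0, covering all other groups. Psmb6, the caspase-like subunit, read 37.2, 32.1, 38.6 and 37 in male controls, 48.3, 37.6, 37.7 and 35.5 in male KlKl, 42.1, 49.8, 39.2 and 42.9 in female controls and 53.6, 51.7, 43.8 and 37.7 in female KlKl kidneys TPM. Psmb7, the trypsin-like subunit, read 1.77, 1.63, 2.12 and 1.95 in male controls, 2.45, 1.99, 1.68 and 1.66 in male KlKl, 1.84, 1.76, 1.51 and 1.35 in female controls and 2.09, 1.69, 1.67 and 1.21 in female KlKl kidneys TPM. For all of these the KlKl and control ranges overlapped in both sexes.

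The immunoproteasome genes did not pass in renal failure either. Their median log2 difference for the mean of both sexes was 0.14 on TPM, from 0.10 (Psmb8) to 0.20 (Psme1) over the 4 tested, and 0.05 on reads, from -0.12 (Psmb9) to 0.10 (Psmb10) over all 5. Psme1, a subunit of PA28 alpha-beta, had the largest of these differences in males, 0.39 (SE 0.14, limma adjusted p = 0.219), and 0.01 in females. Its TPM was 13.0 to 16.5 in male controls and 16.3 to 20.8 in male KlKl kidneys, which overlapped, while its RPM did not overlap. Mitochondrial genes held 41.2% to 47.5% of the summed TPM in male controls and 34.4% to 42.7% in male KlKl kidneys, and 30.7% to 45.1% and 38.6% to 42.4% in females, and the TPM of every library has the same sum. With TPM scaled to nuclear protein-coding genes the difference of Psme1 in males was 0.21 (limma adjusted p = 0.999). With age as a term in the fit, Psme1 in males passed (log2 difference 0.48, limma adjusted p = 0.0414), in a fit that called 909 of 8059 genes. Within the name series of the animals (CFK and CFdk, 2 libraries per group in each), the median immunoproteasome difference in reads between female KlKl and control kidneys was 0.26 in CFK, with 5 of 5 genes higher, and -0.29 in CFdk, with 5 of 5 lower. In males it was 0.12 and 0.03. Psmd5, a chaperone of 19S assembly, had a mean difference of 0.16 (SE 0.07, limma adjusted p = 0.171) on TPM. Psmd3 and Psmb4, a scaffold of the 19S lid and a non-catalytic beta subunit, had the largest constitutive differences for the mean, 0.22 and 0.19, and Psmb3, also a beta subunit without catalytic activity, the lowest, -0.01. Macrophage and dendritic cell markers had beside these values a median log2 difference on reads of 0.35 over 15 genes (14 of 15 positive, 0 called), against 0.12 for all genes. Erythrocyte markers summed to 12.8 to 164 RPM in male controls and 101 to 535 in male KlKl kidneys, and to 5.1 to 195 in female controls and 23.7 to 82.2 in female KlKl kidneys. Their part in these values was not tested.

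**Figure D1:**
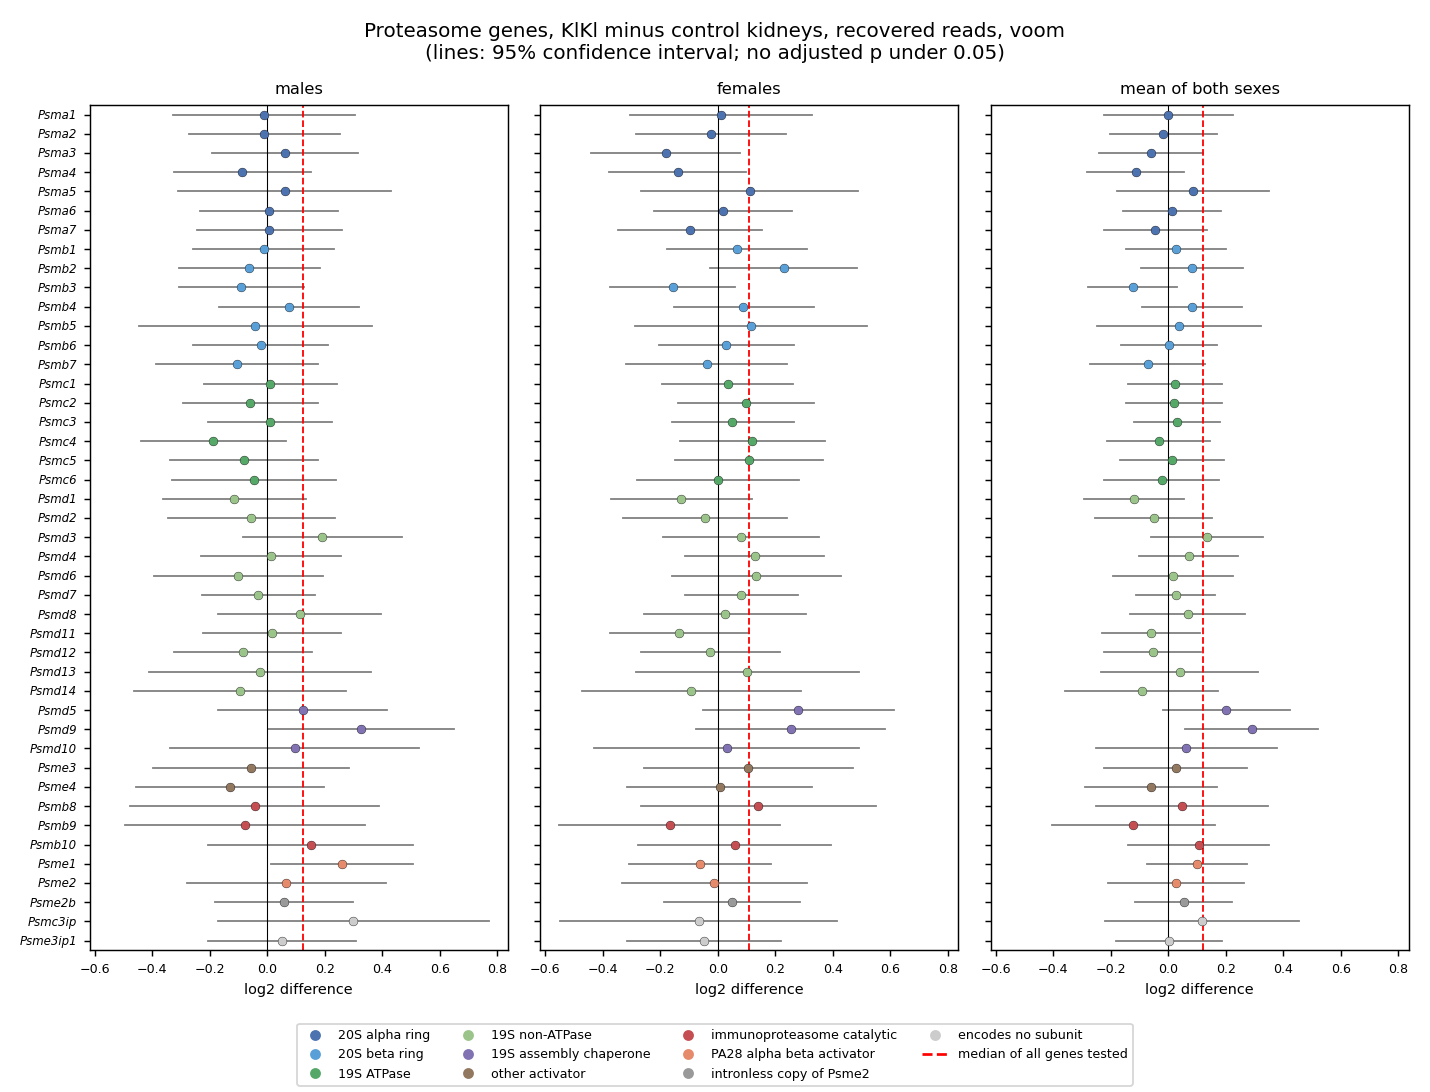
Difference between KlKl and control kidneys for each tested proteasome gene (points, coloured by role; log2 difference in recovered reads, limma voom; lines show 95% confidence intervals) in males, in females and for the mean of both sexes; the dashed line is the median of all genes tested. Points scatter around 0, mostly left of the dashed line, and 0 members passed.

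Between the sexes more members passed. On recovered reads the immunoproteasome genes were lower in male than in female kidneys, while the activators Psme3 and Psme4 and the chaperone Psmd5 were higher. On TPM limma called 12 members higher and 4 lower in male controls, beside 44.3% and 8.3% of all genes tested, and 18 higher and 1 lower in male KlKl kidneys, beside 50.9% and 3.72%. Without male KlKl 1 the KlKl count was 11 higher and 1 lower, beside 43.8% and 3.7% of all genes, and without female KlKl 2 it was 12 higher and 0 lower, beside 44.4% and 2.27%. On reads voom called 5 higher and 15 lower in controls, beside 19.9% and 17.8% of all genes, and 4 higher and 11 lower in KlKl kidneys, beside 15.7% and 11.2%. Without the length and GC trend 6 were called higher and 10 lower in controls, beside 20.6% and 17.5%, and 4 higher and 9 lower in KlKl, beside 13.8% and 11.5%. Without female control 3 and male KlKl 3, the counts on TPM were 16 higher and 3 lower in controls, beside 44.3% and 9.74%, and 22 higher and 2 lower in KlKl, beside 52.4% and 6.38%. On reads without these libraries they were 6 higher and 15 lower in controls, beside 21.2% and 23.2%, and 4 higher and 14 lower in KlKl, beside 20.1% and 20.7%. The TPM of all genes was shifted upward in males, with a median log2 difference of 0.26 in controls and 0.33 in KlKl, against -0.02 and 0.02 on reads, so a call on TPM is read against that shift. Members called in the same direction on TPM, on reads and on reads without the length and GC trend were 4 higher (Psmb2, Psmd5, Psme3 and Psme4) and 4 lower (Psmb10, Psme1, Psme2 and Psme2b) in controls, beside 21.8% and 5.18% of the 6106 genes tested in all these fits. In KlKl kidneys, from other animals, they were 3 higher (Psmd5, Psme3 and Psme4) and 1 lower (Psme2), beside 15.3% and 1.6%. Psme4, Psmd5, Psmd1 and Psme3ip1 met the TPM filter through their male libraries, so their TPM calls add no support of their own. With only heterozygous controls kept, limma on TPM called 5 members higher and 3 lower in controls, 8 in place of 16, beside 23.8% and 4.44% of all genes in that fit. That fit kept male controls 1 and 2 only, which are also the male controls of the CFK name series, against all female controls. Genotype, name series and the smaller group therefore cannot be told apart in it.

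The immunoproteasome genes lie in 3 places (build mm39). Psmb9 (chromosome 17, 34400961 to 34406739, minus strand) and Psmb8 (34416695 to 34420429, plus strand) flank the peptide transporter gene Tap1 (34406527 to 34416200, plus strand). Psme1 (55815580 to 55818987, plus) and Psme2 (55824898 to 55828571, minus) are neighbours on chromosome 14. Psmb10 lies on chromosome 8 (106662367 to 106665077, minus). Psmb9 overlaps the start of Tap1 on the other strand, and the strand setting of the counting is not stated in the sources used here. Reads in that overlap cannot be told apart.

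Because these 5 genes moved together between the sexes, the 250 bases before their RefSeq start are shown (build GRCm38.p6, 5′ to 3′ on the strand of the gene). For Psme2, which has 2 starts in RefSeq, the more distant one was used. Motif matches are in capitals: TTCNNNGAA, the palindrome bound by STAT factors, the CCAAT box (CCAAT or ATTGG) and the GC box (GGGCGG or CCGCCC). Psmb8 is at chr17:34197945-34198194, Psmb9 at chr17:34187331-34187580, Psmb10 at chr8:105938393-105938642, Psme1 at chr14:55578244-55578493 and Psme2 at chr14:55591102-55591351.
Psmb8: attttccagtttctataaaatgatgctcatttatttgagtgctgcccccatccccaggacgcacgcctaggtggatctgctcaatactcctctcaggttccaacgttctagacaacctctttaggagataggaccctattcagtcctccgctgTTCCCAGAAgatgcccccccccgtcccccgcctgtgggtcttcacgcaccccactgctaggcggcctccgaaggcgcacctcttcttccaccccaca
Psmb9: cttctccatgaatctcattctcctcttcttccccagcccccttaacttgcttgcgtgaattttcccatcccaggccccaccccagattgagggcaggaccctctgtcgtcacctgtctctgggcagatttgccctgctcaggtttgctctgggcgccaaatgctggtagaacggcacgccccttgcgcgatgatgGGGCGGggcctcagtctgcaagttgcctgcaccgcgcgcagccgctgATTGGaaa
Psmb10: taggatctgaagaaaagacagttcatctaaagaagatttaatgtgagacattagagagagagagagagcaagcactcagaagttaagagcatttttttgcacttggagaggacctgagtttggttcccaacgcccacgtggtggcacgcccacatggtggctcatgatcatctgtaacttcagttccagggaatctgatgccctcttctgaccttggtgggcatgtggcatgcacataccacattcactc
Psme1: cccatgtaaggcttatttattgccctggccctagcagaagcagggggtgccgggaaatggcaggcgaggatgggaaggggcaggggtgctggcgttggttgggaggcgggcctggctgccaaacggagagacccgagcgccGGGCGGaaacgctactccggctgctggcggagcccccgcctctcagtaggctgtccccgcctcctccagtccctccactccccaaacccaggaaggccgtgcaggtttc
Psme2: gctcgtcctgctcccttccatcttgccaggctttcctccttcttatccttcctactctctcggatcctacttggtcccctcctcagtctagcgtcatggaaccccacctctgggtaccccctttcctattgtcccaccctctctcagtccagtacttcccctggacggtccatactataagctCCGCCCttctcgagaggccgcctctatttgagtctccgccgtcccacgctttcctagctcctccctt
Psmb8 held the STAT-like palindrome, which occurs in 7.04% of 32536 such windows of the genome. Psmb9 held a CCAAT box and a GC box, found in 33.8% and 33.0% of windows, and Psme1 and Psme2 a GC box. The interferon-stimulated response element, searched as its doubled core with a gap (2.98% of windows), had no match in these 5 genes and matched Psmb3, Psmd4 and Psmd9 among the 39 members with a RefSeq start. Both strands were searched, and a match is a description of letters only.

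Psmb10, the trypsin-like immunoproteasome subunit, was lower in males. It read 3.63, 4.02, 4.02 and 4.84 in male controls, 5.8, 4.88, 6.1 and 3.87 in male KlKl, 5.69, 6.24, 8.71 and 5.67 in female controls and 9.14, 6.76, 6.99 and 5.37 in female KlKl kidneys TPM. Every male control lay below every female control, while in KlKl kidneys the ranges overlapped. The difference between male and female controls was -0.55 (SE 0.16, limma adjusted p = 0.0101) on TPM and -0.97 (SE 0.16, voom adjusted p = 0.000296) on reads, a 0.509-fold level. In KlKl kidneys it was -0.38 (SE 0.16, limma adjusted p = 0.0548) on TPM and -0.88 (SE 0.17, voom adjusted p = 0.00119) on reads.

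Psmb8, the chymotrypsin-like immunoproteasome subunit, read 2.39, 2.71, 1.9 and 2.7 in male controls, 2.64, 2.91, 2.63 and 2.15 in male KlKl, 3.12, 3.42, 4.29 and 2.21 in female controls and 5.12, 3.48, 3.61 and 2.62 in female KlKl kidneys TPM. Male and female controls overlapped on TPM, through female control 4, and so did the KlKl groups. On TPM it did not pass (-0.30, SE 0.16, limma adjusted p = 0.13 in controls, -0.37, SE 0.16, limma adjusted p = 0.0607 in KlKl). In RPM the male and female ranges did not overlap, and the difference was -0.73 (SE 0.20, voom adjusted p = 0.00867) in controls and -0.91 (SE 0.20, voom adjusted p = 0.00378) in KlKl. Psmb9, the inducible partner of Psmb6, was below the TPM filter and read 0.659, 0.708, 0.584 and 0.9 in male controls, 0.809, 0.788, 0.656 and 0.703 in male KlKl, 0.99, 1.23, 1.41 and 0.845 in female controls and 1.33, 0.99, 0.873 and 0.874 in female KlKl kidneys TPM. On reads it differed by -0.96 (SE 0.18, voom adjusted p = 0.000816) in controls and -0.87 (SE 0.20, voom adjusted p = 0.00418) in KlKl. It rests on few reads, 50.2 to 122 per library.

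Of the PA28 alpha-beta activator, Psme2 read 3.15, 3.28, 3.32 and 3.54 in male controls, 5.12, 3.46, 3.44 and 3.6 in male KlKl, 5.06, 6.03, 6.24 and 4.5 in female controls and 6.95, 6.71, 5.18 and 4.01 in female KlKl kidneys TPM, with all male controls below all female controls. It differed by -0.57 (SE 0.15, limma adjusted p = 0.00494) in controls and -0.44 (SE 0.15, limma adjusted p = 0.0203) in KlKl on TPM. On reads the differences were -1.04 (SE 0.16, voom adjusted p = 0.000136) and -0.96 (SE 0.16, voom adjusted p = 0.000544), or 0.488-fold and 0.515-fold. Psme1 read 13, 13.2, 14.7 and 16.5 in male controls, 20.8, 18.7, 20.4 and 16.3 in male KlKl, 18.9, 20.7, 17.9 and 20.3 in female controls and 23.9, 22, 18.1 and 15.1 in female KlKl kidneys TPM, again with male controls below female controls, while the KlKl groups overlapped. On reads it differed by -0.79 (SE 0.12, voom adjusted p = 0.000119) in controls and -0.46 (SE 0.12, voom adjusted p = 0.00824) in KlKl, and on TPM by -0.42 (SE 0.14, limma adjusted p = 0.0208) and -0.04 (SE 0.14, limma adjusted p = 0.845). Psme1 also overlaps Emc9 on the other strand.

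**Figure D2:**
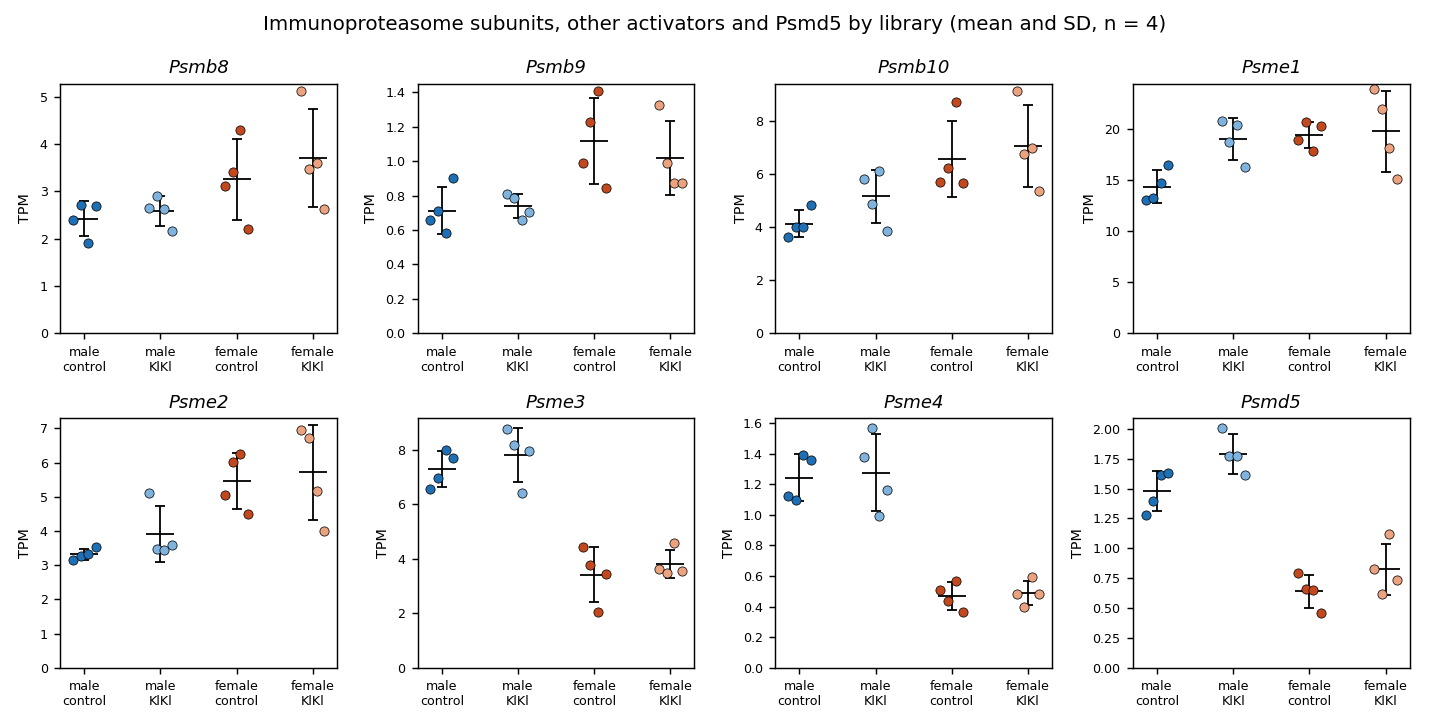
TPM of the 5 immunoproteasome genes, the activators Psme3 and Psme4 and the chaperone Psmd5 in each library (points; bar and whiskers, mean and SD, n = 4; axes start at 0) for male and female control and KlKl kidneys. Psme3, Psme4 and Psmd5 sit higher in every male library than in any female library, and Psme2 sits lower in male than in female controls.

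All 5 immunoproteasome genes were called lower in males on reads, in controls and in KlKl kidneys, with median log2 differences of -0.96 and -0.88. The median of all genes was -0.02 and 0.02, and 17.8% and 11.2% of all genes were called lower. With the length and GC trend removed the medians were -0.71 and -0.73, with ranges of -0.83 to -0.56 and -0.85 to -0.25. All 5 were then called in controls and 4 in KlKl, where Psme1 missed (-0.25, SE 0.09, voom adjusted p = 0.0619). Of all genes, 17.5% and 11.5% were called lower in that fit. Without female control 3 and male KlKl 3, all 5 were called on reads in both comparisons, with medians of -0.84 and -0.91. The shares of all genes called lower were then 23.2% and 20.7%. Within the name series CFK the median difference was -0.84 in controls and -0.999 in KlKl, and within CFdk -0.97 and -0.71, with all 5 genes lower in each. In CFdk the male controls were +/+ and the female controls +/Kl.

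Markers of immune cells were set beside these values. T cell markers summed to 3.32 to 4.62 RPM in male controls and 5.02 to 7.19 in female controls, and to 3.90 to 6.68 and 6.97 to 7.99 in KlKl kidneys, so every male library lay below every female library of its genotype. Macrophage and dendritic cell markers summed to 386 to 487 in male and 353 to 493 in female controls, and to 401 to 690 and 537 to 609 in KlKl. B cell markers summed to 0.877 to 1.60 and 1.17 to 2.80 in controls and to 1.46 to 2.11 and 1.94 to 2.87 in KlKl, and NK cell markers to 0.646 to 1.23 and 0.718 to 3.17, and 0.460 to 1.20 and 0.738 to 1.37. These ranges overlapped between the sexes. The lists hold 6, 15, 4 and 4 genes, and each of these genes had reads in at least 1 library. Their part in the immunoproteasome result was not tested.

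Psme2b, an intronless copy of Psme2 on chromosome 11, read 31.2, 30, 32 and 32.7 in male controls, 42.6, 35.2, 40 and 29.2 in male KlKl, 40.7, 43, 45.8 and 36.6 in female controls and 54.4, 45.9, 44.8 and 35.5 in female KlKl kidneys TPM. Male controls lay below female controls, with a difference of -0.39 (SE 0.15, limma adjusted p = 0.0366) on TPM and -0.73 (SE 0.11, voom adjusted p = 0.000153) on reads. In KlKl kidneys the ranges overlapped on TPM, where it did not pass (-0.29, SE 0.15, limma adjusted p = 0.106), and on reads the difference was -0.72 (SE 0.11, voom adjusted p = 0.000337). Without the length and GC trend it was -0.31 (SE 0.08, voom adjusted p = 0.00748) in controls and -0.37 (SE 0.08, voom adjusted p = 0.005) in KlKl. Its sequence is close to that of Psme2 and it lies within the span of 2 other genes on its strand, so how reads were split among them is uncertain.

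Relative to the constitutive genes, immunoproteasome reads were fewer in males. The 5 genes together held 3.26, 3.64, 3.10 and 3.69% of the reads of the 31 constitutive genes in male controls and 5.18, 5.84, 5.85 and 6.02% in female controls. In KlKl kidneys they held 3.56, 3.93, 4.51 and 3.64% in males and 6.26, 6.05, 5.05 and 4.97% in females. The highest male library, male KlKl 3 at 4.51%, lay below the lowest female library at 4.97%. Group means were 3.42 ± 0.29% and 3.91 ± 0.43% in male control and KlKl kidneys and 5.72 ± 0.37% and 5.58 ± 0.67% in females (SD, n = 4). Psme1 made up most of the sum of the 5 genes, with means of 55.2 of 96.8 RPM in male and 95.2 of 176 in female controls. In KlKl kidneys it held 66.1 of 109 RPM in males and 92.1 of 174 in females. The share thus mainly follows Psme1, and the length and GC trend was not removed from it.

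Each inducible catalytic subunit was also set against the constitutive subunit it replaces, within a library, where library scaling cancels. The sex trend in transcript length does not cancel where the lengths differ. Psmb8 has 1628 bases against 899 for Psmb5, Psmb9 1352 against 798 for Psmb6, and Psmb10 1311 against 1160 for Psmb7. The part of that trend in the ratios was not tested. Per base of transcript, Psmb10 reads were 8.74, 10.6, 8.10 and 10.6% of Psmb7 reads in male controls and 13.3, 15.2, 24.7 and 17.9% in female controls. They were 10.1, 10.5, 15.6 and 9.95% in male KlKl and 18.7, 17.1, 17.9 and 19% in female KlKl kidneys. Males lay below females in both comparisons, with a ratio 0.547-fold in controls and 0.623-fold in KlKl. The exact two-sided permutation p was 0.0286 in each, the smallest that 70 arrangements of 4 against 4 libraries can give, and 0.214 after Benjamini-Hochberg adjustment over the 15 ratio tests. The adjusted values did not pass.

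Psmb8 averaged 6.02 ± 0.82% of Psmb5 in male and 8.56 ± 3.16% in female controls (SD, n = 4), and 6.30 ± 2.63% and 8.26 ± 1.21% in KlKl. The log2 difference of the ratio was -0.45 in controls (exact permutation p = 0.114, adjusted p = 0.488) and -0.47 in KlKl (exact permutation p = 0.2, adjusted p = 0.488). Psmb9 averaged 2.71 ± 0.57% of Psmb6 in male and 3.56 ± 0.97% in female controls, and 2.56 ± 0.27% and 2.98 ± 0.36% in KlKl. Its log2 differences were -0.38 (exact permutation p = 0.171) and -0.22 (exact permutation p = 0.143), each with an adjusted p of 0.488. Male and female ranges overlapped for both pairs. Between KlKl and control kidneys the ratio differences for the mean of both sexes were -0.01 for Psmb8, -0.15 for Psmb9 and 0.17 for Psmb10 (exact permutation p = 0.975, 0.293 and 0.237, adjusted p = 1, 0.488 and 0.488).

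**Figure D3:**
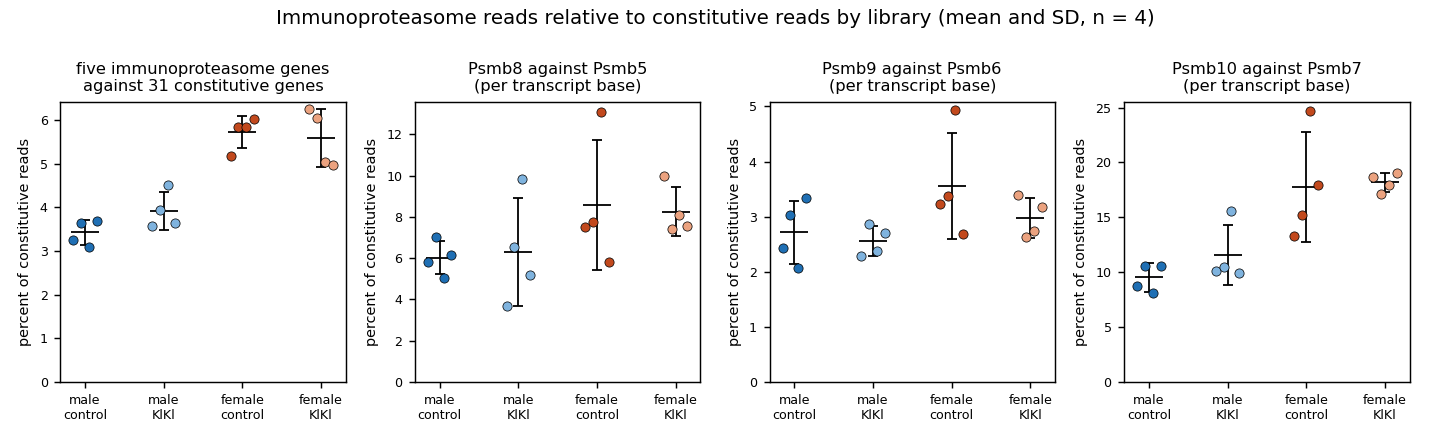
Reads of the 5 immunoproteasome genes as a percent of reads of the 31 constitutive genes (first panel), and reads per transcript base of each inducible catalytic subunit as a percent of the subunit it replaces, in each library (points; bar and whiskers, mean and SD, n = 4; axes start at 0). In the first panel the male libraries, 3.10% to 4.51%, lie below the female libraries, 4.97% to 6.26%.

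The other activators ran the opposite way. Psme3, the nuclear activator PA28 gamma, read 6.54, 6.96, 8 and 7.68 in male controls, 8.74, 8.15, 6.41 and 7.95 in male KlKl, 4.44, 3.76, 2.04 and 3.44 in female controls and 3.63, 3.46, 4.56 and 3.55 in female KlKl kidneys TPM, and every male library lay above every female library. The difference was 0.94 (SE 0.15, limma adjusted p = 0.000174) in controls and 0.88 (SE 0.15, limma adjusted p = 0.000291) in KlKl on TPM. On reads it was 0.78 (SE 0.17, voom adjusted p = 0.00188) and 0.61 (SE 0.17, voom adjusted p = 0.012). Psme4, the activator PA200, read 1.12, 1.1, 1.39 and 1.36 in male controls, 1.38, 1.57, 0.995 and 1.16 in male KlKl, 0.51, 0.434, 0.567 and 0.362 in female controls and 0.483, 0.396, 0.594 and 0.484 in female KlKl kidneys TPM, with the same separation of all male from all female libraries. It differed by 1.08 (SE 0.15, voom adjusted p = 8.43e-05) in controls and 0.95 (SE 0.15, voom adjusted p = 0.000441) in KlKl on reads, 2.12-fold and 1.93-fold. On TPM the differences were 0.61 (SE 0.09, limma adjusted p = 6.27e-05) and 0.61 (SE 0.09, limma adjusted p = 7.18e-05), where the pseudocount of 1 understates the change of a gene near 1 TPM. Psme4 reached 1 TPM in 7 libraries, all of them male, so it met the TPM filter only through the sex where it is high. These TPM tests therefore add no support to the fit on reads, where every library held at least 660 reads of Psme4. Per base of transcript, Psme1 reads were 205% to 240% of Psme3 reads in male controls and 475% to 978% in female controls, and 229% to 354% and 443% to 732% in KlKl. The value of 978% is female control 3, and the other female controls were at 475% to 657%. Psme1 has 1112 bases and Psme3 2664, so the sex trend in transcript length does not cancel here. Its part was not tested.

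Psmd5, a chaperone that holds 19S ATPases during assembly, read 1.28, 1.4, 1.61 and 1.63 in male controls, 2.01, 1.77, 1.77 and 1.61 in male KlKl, 0.795, 0.656, 0.655 and 0.46 in female controls and 0.825, 0.618, 1.12 and 0.732 in female KlKl kidneys TPM. Its lowest male value, 1.28, lay above its highest female value, 1.12. Psmd5 reached 1 TPM in 9 libraries, of which only female KlKl 3 was female, so it met the TPM filter through males. The difference was 0.60 (SE 0.09, limma adjusted p = 0.000123) in controls and 0.62 (SE 0.09, limma adjusted p = 0.000101) in KlKl on TPM, and 0.88 (SE 0.15, voom adjusted p = 0.000346) and 0.72 (SE 0.15, voom adjusted p = 0.00215) on reads. Psmd5 overlaps Cutal on the other strand. With the length and GC trend removed, these 3 genes still passed in controls (0.71 for Psme3, 1.03 for Psme4 and 0.80 for Psmd5) and in KlKl (0.54, 0.81 and 0.60). Within the CFK series the reads of Psme3, Psme4 and Psmd5 differed by 0.49, 1.00 and 0.65 in controls. Within CFdk, where male controls were +/+ and female controls +/Kl, they differed by 1.1, 1.15 and 1.09.

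The other chaperones did not follow Psmd5 in the fits of all libraries. Psmd10, also called gankyrin and encoded on the X chromosome, differed by -0.12 (SE 0.21, voom adjusted p = 0.687) in controls on reads. On TPM it differed by 0.10 (SE 0.17, limma adjusted p = 0.645). Female control 3 was at 43.2 RPM, and the other female controls at 14 to 21.1. Without female control 3 and male KlKl 3, limma on TPM called Psmd10 higher in males, in controls and in KlKl. Of all genes, 44.3% and 52.4% were then called higher. Voom on reads without these libraries did not call it. Psmd9, below the TPM filter at 0.241 to 0.575 TPM, was lower in male controls on reads (-0.42, SE 0.16, voom adjusted p = 0.0424), and in KlKl kidneys differed by -0.35 (SE 0.15, voom adjusted p = 0.0977). Without the length and GC trend it passed in both, with differences of -0.49 (SE 0.12, voom adjusted p = 0.00372) in controls and -0.42 (SE 0.12, voom adjusted p = 0.0143) in KlKl. Psmd9 overlaps the enzyme gene Hpd on the other strand.

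Psmb2 and Psmd2 were the constitutive subunits called higher in male controls on reads. Psmb2, a non-catalytic beta subunit, read 1.46, 1.28, 1.49 and 1.64 in male controls, 1.58, 1.65, 1.66 and 1.35 in male KlKl, 1.04, 1.06, 0.738 and 0.696 in female controls and 1.06, 1.01, 1.15 and 1.07 in female KlKl kidneys TPM, so that all male controls lay above all female controls. It differed by 0.39 (SE 0.08, limma adjusted p = 0.00104) on TPM, 0.40 (SE 0.12, voom adjusted p = 0.0141) on reads and 0.80 (SE 0.12, voom adjusted p = 0.000161) with the length trend removed, while in KlKl kidneys the values were 0.30 (SE 0.08, limma adjusted p = 0.00544), 0.11 (SE 0.12, voom adjusted p = 0.51) and 0.46 (SE 0.12, voom adjusted p = 0.0126). Psmd2, a large subunit of the base of the 19S particle, read 9.31, 9.63, 12.6 and 11.3 in male controls, 13.7, 11.6, 10 and 10.5 in male KlKl, 6.01, 5.59, 8.11 and 4.72 in female controls and 6.19, 6.19, 6.38 and 5.55 in female KlKl kidneys TPM, with every male library above every female library. It passed on TPM (0.73, SE 0.14, limma adjusted p = 0.000658 in controls, 0.81, SE 0.14, limma adjusted p = 0.000317 in KlKl) and on reads (0.49, SE 0.14, voom adjusted p = 0.0101 and 0.48, SE 0.14, voom adjusted p = 0.0161). With the trend removed it did not pass (0.40, SE 0.17, voom adjusted p = 0.0682 and 0.37, SE 0.16, voom adjusted p = 0.103).

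The 20S core and the 19S particle separated by sex in reads. Core genes held 80.1% to 85.1% of the reads of 19S genes in male controls and 102% to 114% in female controls, and 76.6% to 85.7% and 99.8% to 110% in KlKl. The median log2 difference on reads in controls was -0.37 over the 14 core genes (7 called lower, 1 higher) and 0.06 over the 17 19S genes (0 lower, 1 higher). In KlKl it was -0.30 (5 lower, 0 higher) and 0.02 (0 lower, 1 higher). Of all genes, 17.8% were called lower and 19.9% higher on reads in controls, and 11.2% and 15.7% in KlKl. The core genes have shorter transcripts, with a median of 1162 bases against 1819. With the length and GC trend removed the medians drew closer, to -0.11 and 0.13 in controls and -0.16 and 0.06 in KlKl. In that fit 3 of 14 core genes were called lower in each, beside 17.5% and 11.5% of all genes. The core gene Psmb2 was called higher in each, beside 20.6% and 13.8% of all genes. On TPM the core median was -0.02 in controls and the 19S median 0.34, beside 0.26 for all genes. The direction for the constitutive genes as a class thus turned with the scaling, from a median of 0.22 on TPM to -0.06 on reads in controls and from 0.25 to -0.08 in KlKl.

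**Figure D4:**
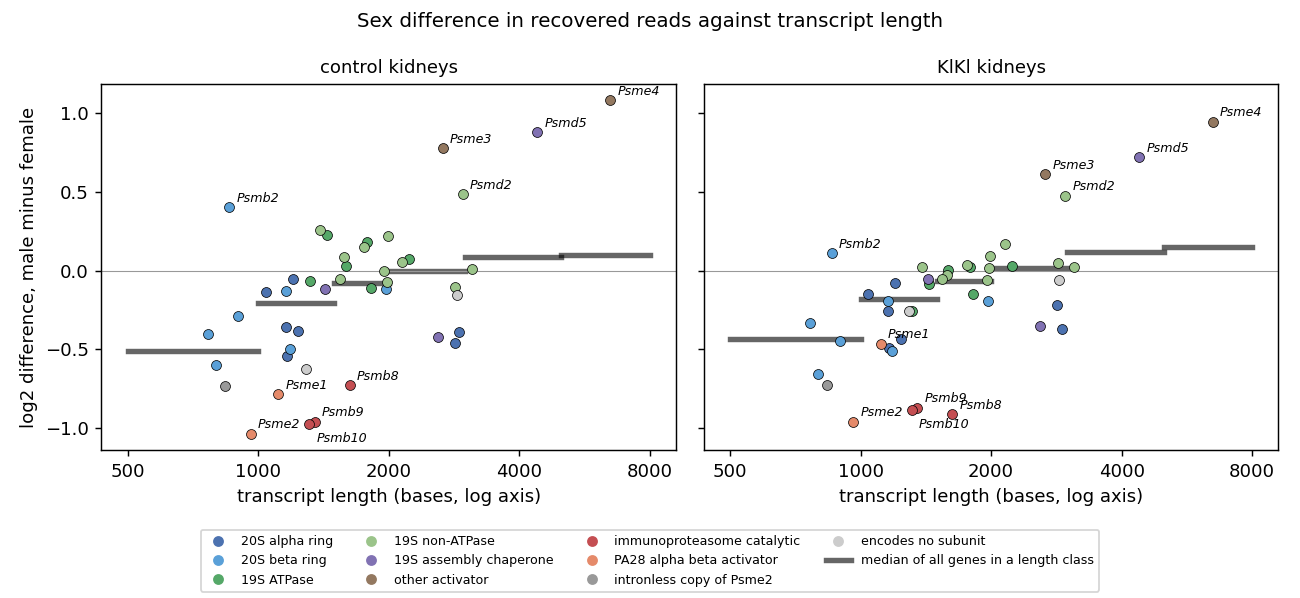
Male minus female log2 difference in recovered reads of each tested proteasome gene (points, coloured by role) against transcript length (bases, log axis), in control and KlKl kidneys; thick bars are the medians of all protein-coding genes in a length class. The 5 immunoproteasome genes lie below, and Psme3, Psme4 and Psmd5 above, the bars at their lengths.

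Core subunits called lower in male controls on reads were Psma2, Psma3, Psma4, Psma7, Psmb3, Psmb4 and Psmb6. Psma4, an alpha subunit and the most abundant member, read 21, 19.7, 19.4 and 20.9 in male controls, 26.1, 20.8, 17.5 and 21 in male KlKl, 22.4, 22.2, 26.8 and 21.8 in female controls and 23.9, 22.2, 22.3 and 20 in female KlKl kidneys TPM and differed by -0.54 (SE 0.11, voom adjusted p = 0.00155) on reads. Psmb4 read 41.9, 37.5, 47 and 46.3 in male controls, 67.1, 47.5, 45.5 and 44.3 in male KlKl, 46.7, 49.1, 52 and 43.8 in female controls and 61.9, 52.1, 58.5 and 42.6 in female KlKl kidneys TPM and differed by -0.49 (SE 0.12, voom adjusted p = 0.00321). Psmb3 read 5.22, 4.55, 5.5 and 5.33 in male controls, 6.44, 4.87, 4.88 and 5.4 in male KlKl, 5.26, 5.7, 5.06 and 5.4 in female controls and 5.75, 5.39, 4.75 and 4.31 in female KlKl kidneys TPM and differed by -0.40 (SE 0.10, voom adjusted p = 0.00628). On TPM the control ranges of Psmb3 and Psmb4 overlapped between the sexes and that of Psma4 did not, and none of the 3 passed in controls (-0.19 for Psma4, -0.15 for Psmb4 and -0.05 for Psmb3). Psmb6 had the lowest value of the core on reads, -0.60 (SE 0.11, voom adjusted p = 0.00061). After removal of the trend Psma2 (-0.33, SE 0.11, voom adjusted p = 0.0257), Psma3 (-0.42) and Psmb4 (-0.29) still passed in controls. Psma4 (-0.25, voom adjusted p = 0.0588), Psma7 (-0.13, 0.425), Psmb3 (0.05, 0.722) and Psmb6 (-0.19, 0.115) did not, and the sign of Psmb3 turned.

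The 19S ATPases called higher in male kidneys on TPM were Psmc1, Psmc2 and Psmc4 in controls and Psmc1, Psmc2 and Psmc6 in KlKl. Psmc1 read 7.24, 6.7, 7.28 and 7.78 in male controls, 8.51, 7.82, 8.29 and 7.81 in male KlKl, 5.29, 5.56, 7.11 and 4.72 in female controls and 6.4, 5.75, 6 and 5.87 in female KlKl kidneys TPM. Psmc2 read 3.45, 3.31, 3.86 and 3.43 in male controls, 4.77, 3.53, 3.55 and 3.26 in male KlKl, 2.85, 2.73, 1.97 and 2.27 in female controls and 3.05, 2.71, 2.77 and 2.41 in female KlKl kidneys TPM, with all male controls above all female controls. Psmc4 read 8.19, 7.45, 8.52 and 8.6 in male controls, 10.4, 7.7, 6.77 and 7.46 in male KlKl, 6.25, 6.21, 4.28 and 5.55 in female controls and 7.1, 6.05, 6.43 and 5.63 in female KlKl kidneys TPM. Psmc6 read 3.66, 3.73, 4.29 and 4.27 in male controls, 5.56, 4.19, 3.52 and 4.1 in male KlKl, 3.71, 3, 3.01 and 2.36 in female controls and 3.76, 2.88, 3.52 and 2.48 in female KlKl kidneys TPM. Their differences in controls on TPM were 0.32, 0.39, 0.49 and 0.32, beside 0.26 for all genes. On reads voom called 0 of 6 ATPases, with differences in controls of -0.11 to 0.23. With the length and GC trend removed Psmc4 passed in controls (0.33, SE 0.12, voom adjusted p = 0.0351), as did the lid subunit Psmd6 (0.43, SE 0.13, voom adjusted p = 0.0159).

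Non-ATPase 19S subunits called higher on TPM were Psmd2, Psmd4, Psmd6, Psmd7 and Psmd13 in controls and, with Psmd1, Psmd3, Psmd8, Psmd11 and Psmd12, all 10 tested in KlKl. Of all genes tested, 44.3% and 50.9% were called higher. Psmd4, the ubiquitin receptor of the particle, read 7.64, 7.07, 9.11 and 8.93 in male controls, 10.6, 8.41, 9.42 and 8.24 in male KlKl, 6.09, 7, 4.43 and 5.9 in female controls and 7.18, 6.77, 6.38 and 6.18 in female KlKl kidneys TPM. Psmd7 read 7.42, 7.91, 8.54 and 8.18 in male controls, 9.43, 8.22, 8.47 and 8.72 in male KlKl, 5.84, 6.46, 6.36 and 5.24 in female controls and 6.95, 6.27, 7.43 and 5.81 in female KlKl kidneys TPM, with every male control above every female control. Psmd6, a lid subunit, read 8.33, 7.04, 7.73 and 7.93 in male controls, 11.2, 7.95, 6.42 and 7.25 in male KlKl, 6.58, 5.4, 4.41 and 4.33 in female controls and 6.58, 5.62, 6.43 and 4.99 in female KlKl kidneys TPM, and Psmd13, also of the lid, 3.98, 3.97, 4.63 and 4.64 in male controls, 6.28, 4.77, 3.81 and 4.23 in male KlKl, 3.39, 2.77, 4.13 and 1.86 in female controls and 3.51, 2.77, 4.07 and 2.87 in female KlKl kidneys TPM. Male controls were above female controls for Psmd4 and Psmd6, and female control 3 at 4.13 lay within the male range for Psmd13. In RPM the male and female ranges of Psmd4, Psmd6, Psmd7 and Psmd13 overlapped, in controls and in KlKl. Voom on all libraries called none of these genes in either comparison. Without female control 3 and male KlKl 3 it called Psmd13 higher in male controls.

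In KlKl kidneys alone the call on TPM took in the remaining non-ATPase subunits. Psmd1, the large base scaffold, read 1.14, 1.16, 1.54 and 1.41 in male controls, 1.58, 1.3, 1.13 and 1.37 in male KlKl, 0.948, 1.04, 1.1 and 0.985 in female controls and 0.989, 1.1, 0.941 and 0.876 in female KlKl kidneys TPM. Psmd3 read 8.12, 7.48, 10.9 and 10.8 in male controls, 12.7, 11.4, 14 and 9.03 in male KlKl, 8.03, 7.91, 6.31 and 5.92 in female controls and 8.89, 7.51, 8.06 and 6.56 in female KlKl kidneys TPM. Psmd8 read 13.1, 12.2, 13.7 and 15.3 in male controls, 18.4, 17.3, 16.5 and 13.3 in male KlKl, 11.9, 10.2, 15.1 and 8.65 in female controls and 13.2, 11.2, 13 and 10.5 in female KlKl kidneys TPM. For each of these 3 every male KlKl library lay above every female KlKl library. Psmd11, a lid subunit, read 1.19, 1.15, 1.4 and 1.27 in male controls, 1.5, 1.3, 1.43 and 1.39 in male KlKl, 0.884, 1.11, 1.3 and 1 in female controls and 1.07, 1.05, 0.985 and 0.934 in female KlKl kidneys TPM. Psmd12, also of the lid, read 2.05, 2, 2.26 and 2.18 in male controls, 2.95, 2.17, 1.8 and 2.1 in male KlKl, 1.85, 1.75, 1.56 and 1.55 in female controls and 1.96, 1.59, 1.9 and 1.48 in female KlKl kidneys TPM, with an overlap of the KlKl ranges that Psmd11 does not have. On reads none of Psmd1, Psmd3, Psmd8, Psmd11 and Psmd12 passed, with differences in KlKl of 0.03, 0.17, 0.02, 0.05 and -0.06. With the libraries scaled by median ratio, the KlKl differences of Psmc1, Psmc2, Psmc6, Psmd1, Psmd4, Psmd6, Psmd7, Psmd8 and Psmd12 were slightly below 0, the lowest -0.06 (Psmd12), so their direction turned with the scaling. Psme3ip1, which encodes a protein that binds PA28 gamma, read 0.994, 0.935, 1 and 1.05 in male controls, 1.36, 1, 1.11 and 1.14 in male KlKl, 0.727, 0.862, 1.13 and 0.863 in female controls and 0.966, 0.868, 0.905 and 0.809 in female KlKl kidneys TPM and passed only on TPM in KlKl (0.19, SE 0.08, limma adjusted p = 0.0469). Psme3ip1 reached 1 TPM in 7 libraries, of which only female control 3 was female. Psmd1 reached 1 TPM in 11 libraries, of which only female controls 2 and 3 and female KlKl 2 were female. Both met the TPM filter through males, so their TPM calls add no support of their own.

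**Figure D5:**
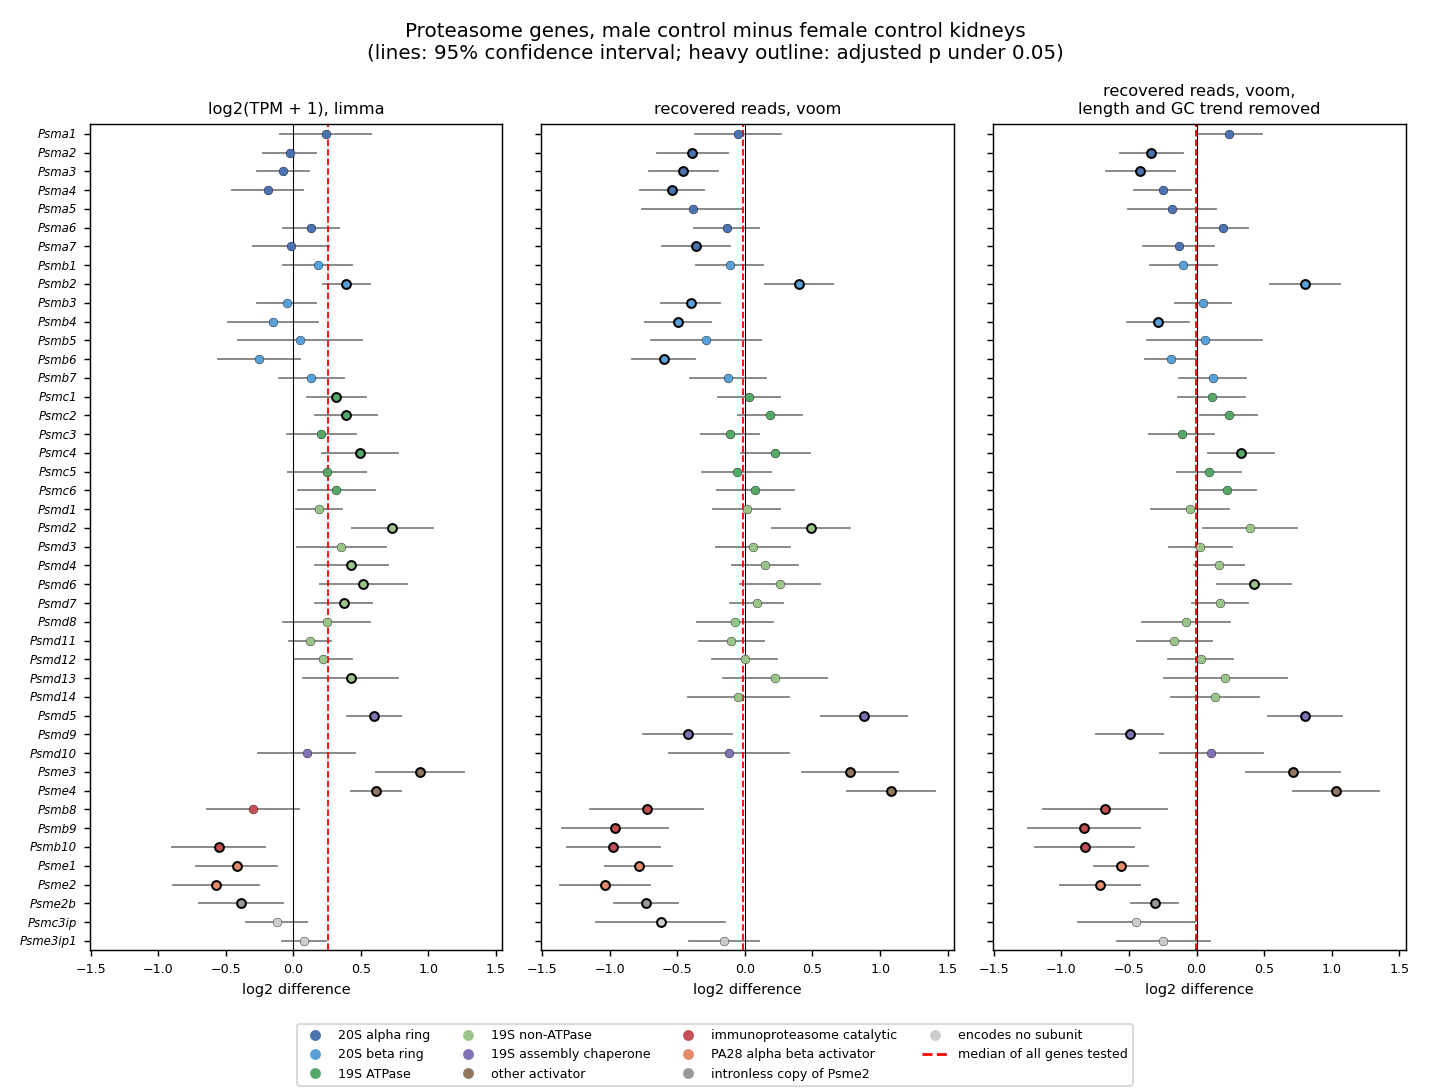
Male minus female control difference of each tested proteasome gene on 3 scales (points, coloured by role; lines, 95% confidence intervals; heavy outline, adjusted p under 0.05; dashed line, median of all genes tested). The immunoproteasome genes drawn lie left of the dashed line, and Psmb2, Psmd5, Psme3 and Psme4 right of it, on all 3 scales. Psmb9, below the TPM filter, has no point on TPM.

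The 6 members below the TPM filter were Psma5 (0.565 to 1.19 TPM), Psma8, Psmb9, Psmb11, Psmd9 and Psmd14 (0.240 to 0.626 TPM). Psma5 is an alpha subunit and Psmd14 the enzyme that removes ubiquitin chains, both with many reads (219 to 406 and 319 to 863 per library) but long gene spans. On reads Psma5 differed by -0.39 (SE 0.18, voom adjusted p = 0.0962) and Psmd14 by -0.05 (SE 0.18, voom adjusted p = 0.842) between male and female controls. The constitutive genes Psma1, Psma6, Psmb1, Psmc3 and Psmc5 passed in no comparison on TPM with all libraries and no further term. Their sex differences in controls were 0.13 to 0.25. Without female control 3 and male KlKl 3, limma on TPM called Psmc3 and Psma6 higher in male KlKl, beside 52.4% of all genes. With age as a term Psmc3 passed between the KlKl sexes, in a fit that called 4989 of 8059 genes. Psmc3ip, a meiosis gene, was lower in male controls on reads (-0.62, SE 0.23, voom adjusted p = 0.0388) from 37.9 to 69.3 reads, and did not pass without the length and GC trend (-0.45, SE 0.21, voom adjusted p = 0.0976).

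Genes that build and feed the proteasome were set beside the members. Of 24 assembly and regulation genes, 17 passed the TPM filter, and 0 were called between KlKl and control kidneys in either fit. In no such comparison were more than 0.0993% of all genes called. In controls 6 were called higher in males on TPM, among them Ddi2, Rad23b, Txnl1, Ubqln1 and Vcp, and 1 lower (Sem1). The shares of all genes were 44.3% and 8.3%. In KlKl 10 were higher (the same 6 with Adrm1, Nfe2l1, Nfe2l2 and Zfand5) and 0 lower, beside 50.9% and 3.72%. On reads 5 were higher and 4 lower of 24 in controls, beside 19.9% and 17.8% of all genes. In KlKl 3 were higher and 5 lower on reads, beside 15.7% and 11.2%. Ddi2, the protease that activates the proteasome's transcription factor, passed on every scale (0.53, SE 0.08, limma adjusted p = 7.15e-05 on TPM and 0.59, SE 0.11, voom adjusted p = 0.000486 on reads in controls). Nfe2l1, that factor itself, passed on TPM in KlKl (0.49, SE 0.12, limma adjusted p = 0.00291) and not on reads (0.10, SE 0.11, voom adjusted p = 0.539). In controls its direction turned with the scaling, from 0.26 (SE 0.12, limma adjusted p = 0.078) on TPM to -0.23 (SE 0.09, voom adjusted p = 0.0442) on reads without the trend. Sem1, a small 19S subunit, was lower in male controls on reads (-1.14, SE 0.16, voom adjusted p = 6.94e-05) and without the trend (-0.86). Pomp, the maturation factor of the core, differed by -0.42 (SE 0.13, voom adjusted p = 0.0177) on reads, -0.53 (SE 0.14, voom adjusted p = 0.00862) without the trend and -0.07 (SE 0.12, limma adjusted p = 0.674) on TPM. Rad23b, which shuttles ubiquitin-tagged proteins to the proteasome, was higher in male controls on reads by 0.55 (SE 0.13, voom adjusted p = 0.00314), and by 0.47 (SE 0.13, voom adjusted p = 0.00865) without the trend.

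Of the ubiquitin genes, Uba1 and Ubb were called higher and Rps27a lower in male controls on TPM, and Uba1 higher in KlKl. On TPM 44.3% of all genes were higher and 8.3% lower in controls, and 50.9% and 3.72% in KlKl. On reads Uba1 was higher and Rps27a lower in controls, and Rps27a lower in KlKl, where it did not pass without the trend (-0.66, SE 0.25, voom adjusted p = 0.0608). Of 16 genes of antigen processing and interferon response, 1 was higher and 4 lower in male controls on reads, and 1 higher and 5 lower in KlKl, with medians of -0.07 and -0.19. Of all genes, 19.9% were higher and 17.8% lower on reads in controls, and 15.7% and 11.2% in KlKl. Ifit1, an interferon-induced gene, differed most (-1.59, SE 0.30, voom adjusted p = 0.000624 in controls, and -1.57 without the trend). B2m, the light chain of MHC class I, was lower on reads (-0.62, SE 0.12, voom adjusted p = 0.00102) and did not pass without the length and GC trend (-0.09, SE 0.13, voom adjusted p = 0.607). Also lower on reads were Irf1 (-0.52, SE 0.14, voom adjusted p = 0.00937) and Isg15 (-0.94, SE 0.33, voom adjusted p = 0.035), of which Irf1 passed without the trend (-0.54, SE 0.13, voom adjusted p = 0.00487) and Isg15 did not (-0.48, SE 0.31, voom adjusted p = 0.233). Nlrc5, an activator of MHC class I genes, was lower in male than in female KlKl kidneys (-1.07, SE 0.28, voom adjusted p = 0.00926). Erap1, the peptide trimmer of the endoplasmic reticulum, was higher in male controls (0.51, SE 0.15, voom adjusted p = 0.0169). Tap1, which lies between Psmb9 and Psmb8, differed by -0.06 (SE 0.20, voom adjusted p = 0.827) in controls. On TPM only Ifit1 of 10 tested genes passed, lower in both.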

How the data were processed

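RNA levels were measured in 16 kidneys, 4 per group. The deposited values are TPM, made with Partek on build mm39 per the submitters' processing notes. The sources used here do not give the aligner, annotation or strand setting. Each library sums to 309446 TPM. A value is the reads plus 0.0001, divided by the gene span with introns, so reads were recovered (81.2% of 160763 values under 20 reads were whole within 0.1). A repeated row was dropped, and 0 columns belonged to other samples. The recovered depth, 8209617 to 20109681 reads per library, sets the precision of low genes.

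The test was limma 3.58.1 (R 4.3.3) on log2(TPM + 1), with an intensity trend and all 4 groups in the fit, over genes with TPM of 1 or more in at least 4 libraries (8059 genes). Fold changes on this scale understate those of low genes. The second fit was limma voom on recovered reads, over the 17489 genes that reached 10 reads in 4 or more of the libraries. P-values were adjusted by Benjamini-Hochberg over all genes tested, with a threshold of 0.05. SE is the standard error of the fit. In a further fit, chosen after seeing the data, the trend of each library in transcript length and GC content was removed (13908 protein-coding genes, longest protein-coding transcript of GENCODE M21 matched by gene identifier). Ratios were tested by exact two-sided permutation over libraries. Upstream sequences came from RefSeq (GRCm38.p6), in which 39 of 46 members had a start. The tests were tried on simulated data.

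Values in every library are given for the catalytic, immunoproteasome and activator genes, for each member called on TPM, and for the 3 highest and 3 lowest tested members in the mean KlKl effect and in the sex difference of controls. The members and gene lists were chosen with earlier results of these data known. Alternatives were another pseudocount, other filters and scalings, no trend, a term for the age, for the replicate number or for the name series, only heterozygotes as controls, and leaving out libraries. Counting error alone did not account for the spread between replicates. Some genes of these lists are not reported here.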

Additional observations from a re-analysis of the deposited data

Results flagged for a closer look

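In 4 of 136 groups of 4 libraries tested (2.94%), 1 library stood far from the other 3, where chance alone gives about 1 in 20 groups. Psma4, an alpha subunit of the core, was at 26.8 TPM in female control 3, and at 21.8 to 22.4 in the other female controls. Psmb4, a beta subunit of the core, was at 67.1 TPM in male KlKl 1, and at 44.3 to 47.5 in the other male KlKl kidneys. Psme2, of the PA28 activator, was at 5.12 TPM in male KlKl 1 as well, and at 3.44 to 3.60 in the others. The ratio of Psmb10 to Psmb7 in TPM was 3.64 in male KlKl 3, and 2.33 to 2.45 in the others.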

How the results depend on the processing

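Medians are of log2 differences. The age term gave 1 member called between KlKl and control males in place of 0, in a fit that called 909 of 8059 genes. Heterozygous controls alone, with only male controls 1 and 2 left among males, gave 8 members called between control sexes in place of 16. Of all genes in that fit, 23.8% were called higher and 4.44% lower. Leaving out each library in turn gave 13 to 19 in controls, and 12 to 22 in KlKl in place of 19, the lowest without male KlKl 1 and without female KlKl 2. It gave 0 in each KlKl effect. With all libraries kept, 44.3% of all genes were called higher and 8.3% lower between control sexes, and 50.9% and 3.72% between KlKl sexes. Between KlKl sexes the shares were 43.8% and 3.7% without male KlKl 1, and 44.4% and 2.27% without female KlKl 2.

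For the KlKl effect in males the constitutive median was -0.097 by median-ratio scaling, -0.052 by nuclear protein-coding scaling, -0.025 by voom, -0.173 by voom with median-ratio scaling and -0.143 by voom without the length and GC trend. The immunoproteasome median was -0.028, 0.024, -0.084 and -0.033 in the same order without plain voom. In females the constitutive median was -0.067 by median-ratio scaling, -0.082 by voom with it and -0.050 without the length and GC trend, and the immunoproteasome median -0.110 and -0.115 by the first 2. For the mean of both sexes they were -0.074, -0.119 and -0.092, and -0.052, -0.072 and -0.055. The effect difference between the sexes had a constitutive median of -0.081 and -0.078 by the last 2.

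Between control sexes the constitutive median was -0.090 by median-ratio scaling, 0.00 by nuclear protein-coding scaling, -0.062 by voom, -0.042 by voom with median-ratio scaling, -0.028 by voom without female control 3 and male KlKl 3, and 0.061 without the length and GC trend. The immunoproteasome median was -0.786, -0.682, -0.960, -0.931, -0.843 and -0.714 in that order. In KlKl they were -0.095, -0.029, -0.075, -0.098, -0.011 and 0.012, and -0.706, -0.653, -0.882, -0.899, -0.907 and -0.730. The immunoproteasome medians were below 0 in all of these.

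Between the KlKl sexes these members turned. Psmb3 was at -0.306 by median-ratio scaling, -0.243 by nuclear protein-coding scaling, and -0.332, -0.355 and -0.286 by voom, voom with median-ratio scaling and voom without those 2 libraries. By median-ratio scaling Psmc1 was at -0.028, Psmc2 at -0.007, Psmc6 at -0.004, Psmd1 at -0.004, Psmd4 at -0.002, Psmd6 at -0.010, Psmd7 at -0.056, Psmd8 at -0.020 and Psmd12 at -0.060. By voom with it Psmc1 was at -0.017, Psmd6 at -0.0, Psmd7 at -0.049, Psmd8 at -0.007, Psmd12 at -0.085 and Psme3ip1 at -0.079. By voom Psmd7 was at -0.026, Psmd12 at -0.061 and Psme3ip1 at -0.057. By voom without those 2 libraries Psmc1 was at -0.003, Psmd7 at -0.011 and Psme3ip1 at -0.040. Without the length and GC trend Psmd1 was at -0.070, Psmd11 at -0.033, Psmd12 at -0.048 and Psme3ip1 at -0.152. Psmd12 was at -0.012 by nuclear protein-coding scaling. Between control sexes Psmc1 was at -0.016 by median-ratio scaling and Psmb5 at -0.363 by voom without those 2 libraries. The cause was not tested.

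With the replicate number as a block 17 members were called between control sexes, 18 between KlKl sexes and 0 for each KlKl effect, and no call on these counts moved by over 1.5 times. Without the block 44.3% of all genes were called higher and 8.3% lower between control sexes, and 50.9% and 3.72% between KlKl sexes. The shares with the block are not given here, so its counts are not read as a result about the proteasome. Of 24 pairs of same-numbered libraries 5 had correlated deviations above 0.1 (range -0.22 to 0.22), and 4 libraries correlated best with their own number, so the numbers were not taken to pair animals. With 4 libraries against 4, a ratio test could pass after adjustment only if most of the 15 were at or below the smallest p of that design. The alternatives of those tests therefore say nothing about stability. The ratio tests for the mean of both sexes had 4900 arrangements and a smallest exact permutation p of 0.000408. They could therefore pass, and did not. Depth limits Psmb9, Psmc3ip, Psma8 and Psmb11 most.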
